A study of Homo sapiens with 6 samples.

Results

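Cells of the human neuroblastoma line SH-SY5Y were treated for 24 h with 16F16 or with securinine, and the comparison described here is the expression difference between these treatments across all named genes. It rests on the 2 arrays labelled 16F16 and the 2 arrays labelled securinine, which are 4 of the 6 arrays of the series. The other 2 arrays are a mock treatment with methanol, the solvent, for the same 24 h, and they set the reference level beside each gene. They also enter the estimate of spread behind every p-value between the compounds. 16F16 was given at 4 µM and securinine at 30 µM, so every difference is between these treatments as given and not between equal doses. Replicates are labelled biological, but nothing states how the cultures were separated, so the p-values measure the spread between these samples, which may be partly technical. SH-SY5Y is an established line from a neuroblastoma metastasis with noradrenergic features, and a cell line of this kind is a single genetic background.

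Protein disulfide isomerases are enzymes of the endoplasmic reticulum that form and rearrange disulfide bonds in newly made proteins. The series groups both compounds as inhibitors of this enzyme family. Securinine, a plant alkaloid, is also known as an antagonist of GABA-A receptors. Compounds that react with protein thiols are known to set off several stress programmes in cells: the NRF2 programme of antioxidant enzymes, the heat shock response of cytosolic chaperones, the unfolded protein response with its effector ATF4, and the p53 programme, which restrains the cell cycle. In neuroblastoma cells these programmes stand beside a lineage programme of catecholamine synthesis and secretory granules.

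Expression was measured as log2 values for 53617 probe sets per array, of which 16098 carry exactly 1 gene symbol, and the tests cover the 14884 named genes. The number of arrays limits the precision, with a median standard error of 0.11 log2 units for a difference. Array medians ran from 4.16 to 4.23. The correlation over all probe sets was 0.990 between the securinine arrays and 0.986 between the 16F16 arrays, and 0.981 to 0.983 across the compounds. All 10 measured neuroblastoma identity genes lay above the median of all probe sets on all 6 arrays. Of 12 measured markers of epithelial, blood and endothelial cells, 0 were called between the compounds, 4 lay at or below that median on every array and 4 above it on every array, and their summed linear level was 317 and 357 with securinine and 306 and 345 with 16F16. In bulk RNA, fewer cells of a kind and less RNA per cell cannot be told apart.

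The profiles of the compounds differed at 1416 genes, 9.51% of those tested (limma, adjusted p under 0.05, called from here on). Of these, 826 genes (5.55%) were higher with 16F16 and 590 (3.96%) were lower with 16F16 than with securinine. The differences were mostly small: 130 called genes differed by at least 2-fold, 97 of them higher and 33 lower with 16F16, and only CXCR4 and TXNIP, both higher with 16F16, passed 4-fold. The median absolute difference over all genes was 0.17 log2 units. The 16F16 and securinine arrays did not overlap at 8300 genes (55.8%), among them all 1416 called genes. Protein-coding genes made up most of the calls, with 765 higher and 522 lower of 11916 tested, while 63 of 1398 long noncoding RNA genes and 38 of 1072 microRNA genes were called. Against the shared mock arrays the same model called 2823 genes for securinine and 223 for 16F16. All 6 arrays entered this model, and a fit of the 4 compound arrays alone called 324 genes between the compounds.

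The count of calls changed with each array left out. Without securinine replicate 1, securinine replicate 2 or 16F16 replicate 1, 0 genes were called by limma, with 3023, 3290 and 3469 genes at an unadjusted p under 0.05, against 4116 with all arrays. Without 16F16 replicate 2, 261 genes were called, and without either mock array, 324. When all 53617 probe sets entered the adjustment, 0 were called and 9565 had an unadjusted p under 0.05. The direction of the difference at the 1416 genes could not change in these fits, so its staying the same is no check. At each of these genes both 16F16 arrays lie beyond both securinine arrays, and mock arrays do not enter the difference. Where a group was left with a lone array, that array is assumed to vary like the other groups.

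**Figure D1:**
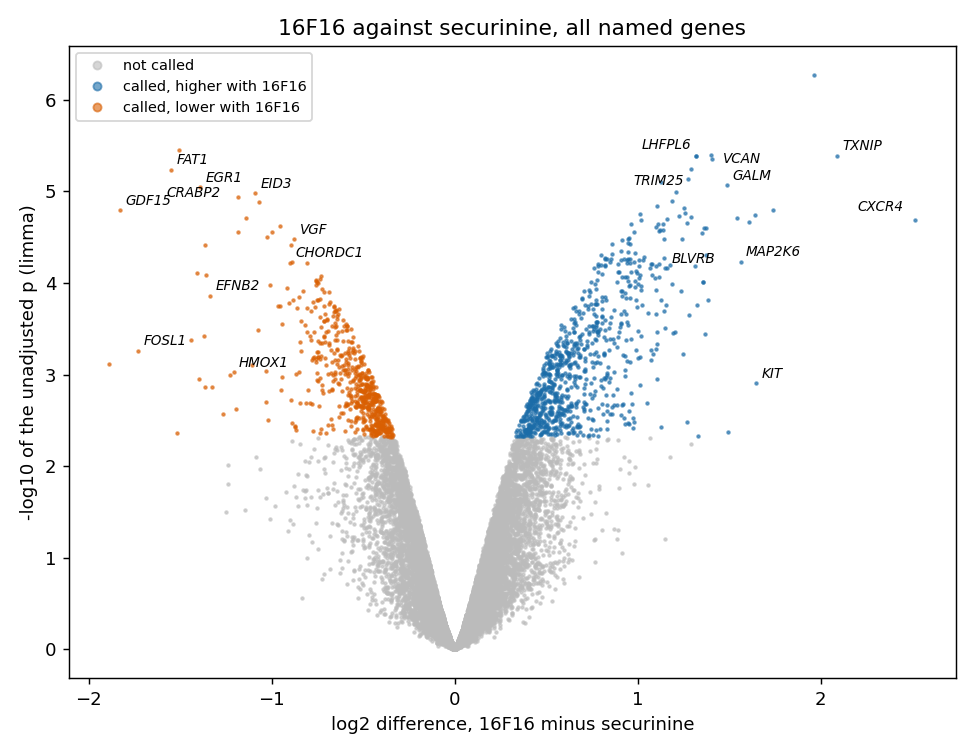
Log2 difference between 16F16 and securinine (horizontal axis) against the negative log10 of the unadjusted limma p (vertical axis) for each of the 14884 named genes. Blue points are the 826 genes called higher with 16F16, orange points the 590 called lower, and grey points were not called; CXCR4 and TXNIP lie farthest to the right, and GDF15 and FOSL1 are the protein-coding genes farthest to the left.

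The genes with the largest positive differences had lower values with securinine than with 16F16, and in most of them 16F16 lay near the mock arrays. CXCR4, the receptor for the chemokine CXCL12, stood at 10.20 and 10.25 on the mock arrays, at 6.94 and 6.51 with securinine, and at 9.47 and 9.02 with 16F16. The groups did not overlap, and the securinine arrays were the lowest by far. The difference of 2.52 ± 0.20 log2 units (SE, n = 2 arrays per group) is a 5.73-fold higher level with 16F16 (limma, adjusted p = 0.00876). TXNIP encodes an arrestin-like protein that binds thioredoxin and limits glucose uptake. Its values were 8.86 and 8.88 in mock, 5.37 and 5.52 with securinine, and 7.68 and 7.39 with 16F16. Both compounds lay below mock, and 16F16 lay 2.09 ± 0.12 above securinine (4.26-fold, adjusted p = 0.00876). ARRDC4, a close relative of TXNIP, followed with 5.20 and 5.42 with securinine, 6.63 and 6.56 with 16F16, and a difference of 1.29 ± 0.10 (adjusted p = 0.00876).

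KIT, the receptor tyrosine kinase for stem cell factor, was measured at 6.71 and 6.84 in mock, 4.21 and 3.65 with securinine, and 5.92 and 5.23 with 16F16. Its replicates were among the widest apart of the leading genes, and the difference was 1.65 ± 0.28 (adjusted p = 0.0276). MAP2K6, a kinase that activates p38, read 8.56 and 8.69 in mock, 5.69 and 6.10 with securinine, and 7.47 and 7.45 with 16F16, a difference of 1.56 ± 0.15 (adjusted p = 0.00979). For both genes the 16F16 arrays fell between the other groups.

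In another group of leading genes the 16F16 arrays lay at the mock level. GALM, the galactose mutarotase, stood at 7.16 and 7.37 in mock, 5.89 and 5.84 with securinine, and 7.35 and 7.36 with 16F16, and differed by 1.49 ± 0.10 (adjusted p = 0.00876). VCAN, the matrix proteoglycan versican, stood at 7.38 and 7.25, at 5.97 and 5.96, and at 7.35 and 7.39 in the same order, and differed by 1.41 ± 0.08 (adjusted p = 0.00876). EPAS1, the hypoxia-inducible factor HIF-2 alpha, read 9.33 and 9.20, 7.70 and 7.92, and 9.25 and 9.12, with a difference of 1.37 ± 0.11 (adjusted p = 0.00876). In all 3 genes the securinine arrays stood apart from the other 4. The remaining genes among the 15 largest positive differences were EXPH5, RTL1, RASSF2, GALNT12, LRRN1, RPH3A, ANKRD45 and FNDC10, with differences from 1.32 to 1.38. RPH3A encodes rabphilin, which acts in synaptic vesicle release, and RASSF2 encodes a RAS-association domain protein. TXNIP and VCAN each have a second, dimmer probe set, which differed by 1.12 and 0.81 in the same direction, and the second probe set of RTL1 differed by 1.498.

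The genes with the largest negative differences were for the most part higher with securinine than on every other array. GDF15, a secreted stress cytokine of the TGF-beta family, read 7.52 and 7.47 in mock, 11.38 and 11.44 with securinine, and 9.39 and 9.78 with 16F16. Both compounds lay above mock, and 16F16 lay below securinine by 1.83 ± 0.14, a 3.55-fold lower level (adjusted p = 0.00876). FAT1, an atypical cadherin, gave 7.87 on both mock arrays, 10.72 and 10.93 with securinine, and 9.25 and 9.29 with 16F16, a difference of -1.55 ± 0.10 (adjusted p = 0.00876). In both genes, and in EID3, the 3 groups stood apart with 16F16 in the middle. EID3, which has a role in chromosome maintenance, read 4.44 on both mock arrays, 6.19 and 6.13 with securinine, and 5.07 and 5.06 with 16F16, a difference of -1.09 ± 0.08 (adjusted p = 0.00876). GPNMB, a glycoprotein of lysosomes and melanosomes, differed by -1.40 ± 0.23 (adjusted p = 0.0261), and CD68, a lysosomal membrane glycoprotein, by -1.23 ± 0.20 (adjusted p = 0.0251).

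Some genes of this side had a 16F16 mean below mock. CRABP2, which carries retinoic acid to its nuclear receptor, read 8.13 and 8.02 in mock, 8.58 and 8.52 with securinine, and 7.38 and 7.36 with 16F16, a difference of -1.18 ± 0.08 (adjusted p = 0.00876). The 16F16 arrays were the lowest and the securinine arrays the highest. SCG2, the granule protein secretogranin II, gave 8.08 and 7.96 with securinine against 6.49 and 7.16 with 16F16, a difference of -1.19 ± 0.23 (adjusted p = 0.035). Its 16F16 replicates differed from each other by more than the median standard error. TRIL differed by -1.14 ± 0.09, but only in its brighter probe set, and its second probe set gave 0.08. KRTAP5-2, EFNB2, EGR1, FOSL1, PLK2, DRAM1 and HMOX1 complete the 15 and are described with their groups.

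**Figure D2:**
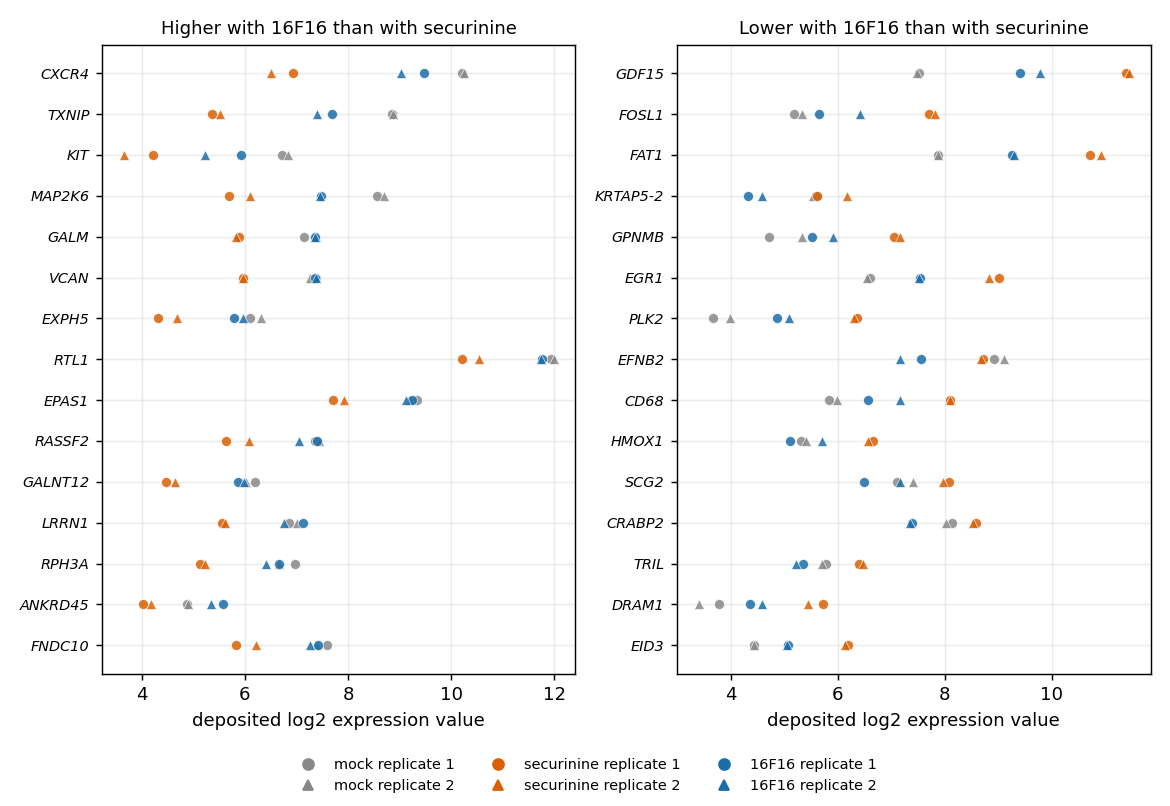
Deposited log2 value of each array (horizontal axis) for the 15 largest called differences in either direction among the genes that the naming rule admits; circles are replicate 1 and triangles replicate 2, grey mock, orange securinine, blue 16F16. In the left panel the securinine points are the lowest, from CXCR4 at 6.94 and 6.51 downwards; in the right panel they are the highest in every gene except EFNB2, where mock lies above them.

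Some patterns were counted with both compounds set beside mock, and they do not cover all called genes. Genes with the 16F16 arrays between mock and securinine, such as GDF15 and FAT1, were not counted. At 385 of the 1416 called genes the 16F16 arrays lay on one side of both mock arrays and the securinine arrays on the other. Small RNAs, antisense genes, pseudogenes and uncharacterised loci were left out of this count. How many of all genes have this order was not counted, and a call already favours genes whose compound arrays lie apart. KRTAP5-2, a keratin-associated protein gene, read 5.60 and 5.54 in mock, 5.62 and 6.17 with securinine, and 4.32 and 4.59 with 16F16, a difference of -1.44 ± 0.20 (adjusted p = 0.0187). Securinine replicate 1 lay only just above mock. LHFPL6 read 7.09 and 7.12 in mock, 6.74 and 6.67 with securinine, and 8.03 and 8.01 with 16F16, a difference of 1.32 ± 0.08 (adjusted p = 0.00876). At LHFPL6 each compound was also called against the shared mock arrays, securinine at -0.40 (adjusted p = 0.0217) and 16F16 at 0.92 (adjusted p = 0.0255). CCNE2 and CDT1, given below, were likewise called against mock with each compound. Securinine lay at -0.53 for both genes, and 16F16 at 0.70 for CCNE2 and 0.58 for CDT1. EMP2, a tetraspan membrane protein, differed by 1.28 ± 0.08, the small GTPase gene RRAS by 1.27 ± 0.10, the synaptic adhesion gene NLGN3 by 1.28 ± 0.16, and the cell adhesion gene CADM3 by 1.26 ± 0.09. In these 4 genes 16F16 lay 0.07 to 0.41 above mock and did not pass the test against it, while securinine lay 0.84 to 1.21 below mock and passed. Being on opposite sides of mock therefore does not mean that both compounds moved the gene.

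At 40 of the 1416 called genes, with the same kinds of genes left out, the 16F16 arrays lay beyond all other arrays on the same side of mock as securinine. The count required the securinine mean to lie between the mock and 16F16 means. It leaves out the genes with the compounds on opposite sides of mock, where 16F16 also lay beyond all other arrays. The share of all genes with this order was not counted. EFNB2, the ligand ephrin-B2, read 8.92 and 9.10 in mock, 8.72 and 8.67 with securinine, and 7.55 and 7.16 with 16F16. Its difference was -1.34 ± 0.15 (adjusted p = 0.0129), and 16F16 lay 1.65 below mock. DCX, the microtubule protein doublecortin of migrating neurons, read 5.88 and 5.69, 5.58 and 5.70, and 4.59 and 4.80 in the same order, a difference of -0.94 ± 0.12 (adjusted p = 0.0162). GCH1, which makes the cofactor for tyrosine hydroxylase, read 8.06 and 8.23 in mock, 8.20 and 8.09 with securinine, and 7.41 and 7.25 with 16F16, a difference of -0.81 ± 0.11 (adjusted p = 0.0169). The securinine and mock arrays of DCX and GCH1 overlapped. CREB5 (-0.72 ± 0.10), KCNRG (-0.67 ± 0.14) and FLRT1 (-0.67 ± 0.14) were lower with 16F16 in the same manner. VAMP1, a vesicle fusion protein, was higher by 0.66 ± 0.13, and LRP10, a lipoprotein receptor relative, by 0.64 ± 0.10.

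At 85 of the 14884 genes both compounds were called against mock with the same sign, and the 95% interval of their difference lay within ±0.5 log2 units. A call between the compounds was not required here. RET, the receptor for GDNF family ligands, read 8.19 and 8.18 in mock, 6.93 and 6.85 with securinine, and 7.18 and 6.87 with 16F16, a difference of 0.13 with an interval from -0.17 to 0.43. ITPKB, an inositol trisphosphate kinase, read 5.78 and 5.61, 6.90 and 6.78, and 6.78 and 6.85 in that order, a difference of -0.03 with an interval from -0.27 to 0.22. KIF1C, a kinesin motor, lay 1.13 above mock with securinine and 1.05 above with 16F16, with an interval of the difference from -0.29 to 0.14. For FGF14, ZHX2, TNS3 and ARHGAP36, which lay below mock with both compounds, the differences ran from -0.12 to 0.14. TSPEAR-AS2, an antisense transcript, had a difference of -0.23 with an interval from -0.45 to -0.0036, which excludes 0, and its 16F16 and securinine arrays did not overlap. These intervals bound the difference and do not show that the compounds act alike.

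**Figure D3:**
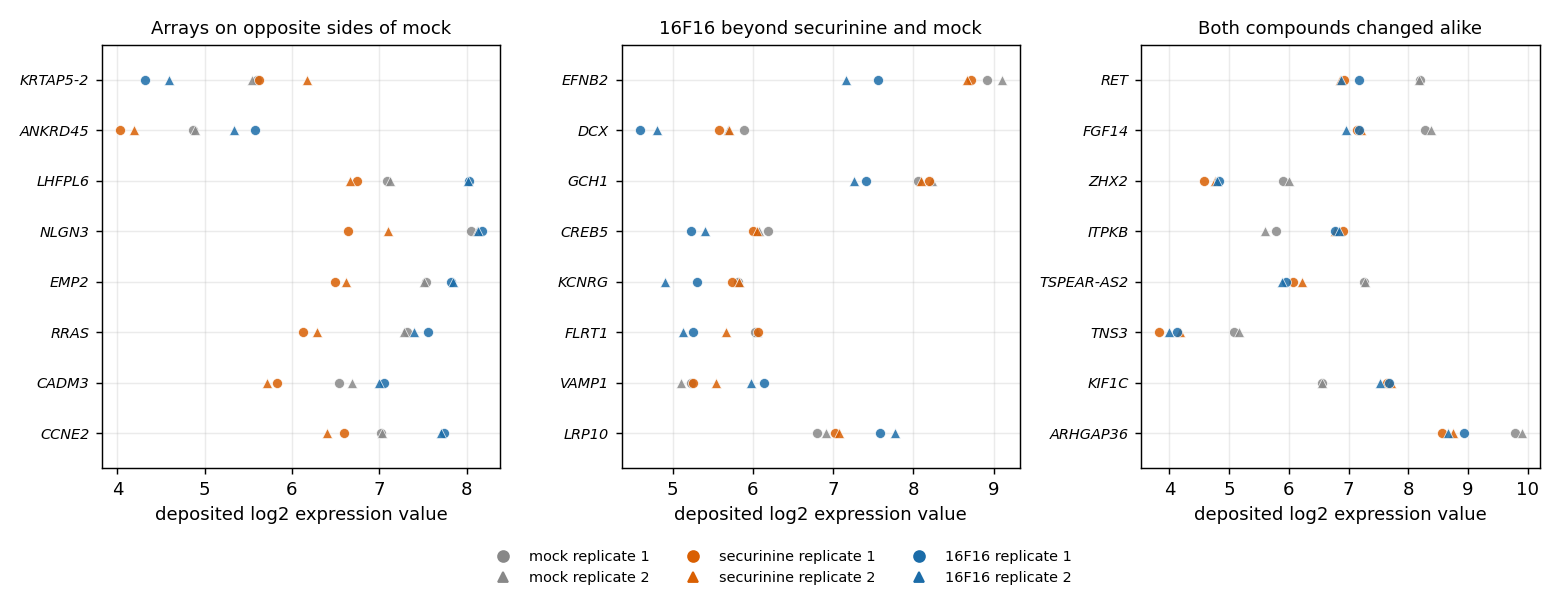
Deposited log2 values of each array for 3 sets of 8 genes: called genes with the 16F16 and securinine arrays on opposite sides of mock (left), called genes with 16F16 beyond all other arrays (middle), and genes whose difference between the compounds is bounded within ±0.5 (right). In the middle set the securinine mean lies between the mock and 16F16 means. Grey is mock, orange securinine, blue 16F16, circles replicate 1 and triangles replicate 2; in the right panel the orange and blue points of RET, ITPKB and KIF1C lie together, away from mock.

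Genes of stress programmes and of the cell cycle were described by 28 lists, of which 27 had measured members and which together name 954 genes, 523 of them measured. Each list is given by its counts, and many also by their median. Among all genes 9.51% were called and the median difference was 0.01. No list was tested as a set. The calls within lists share the dependence on single arrays: they were 0 in every list without securinine replicate 1, securinine replicate 2 or 16F16 replicate 1. Without 16F16 replicate 2, 1 heat shock gene, 2 p53 targets and 4 replication genes were called in the directions given next, and without either mock array 3, 4 and 4.

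The heat shock list showed one direction. All 18 measured members lay lower with 16F16 than with securinine, 10 of them called and 0 called higher, with a median of -0.38. CHORDC1, a co-chaperone of HSP90, read 4.97 and 4.93 in mock, 5.86 and 5.95 with securinine, and 4.95 and 5.06 with 16F16. The 16F16 arrays lay at the mock level, and the difference was -0.90 ± 0.09 (adjusted p = 0.00979). HSPA1A, the inducible HSP70, read 10.72 and 10.73 in mock, 11.64 and 11.51 with securinine, and 10.85 and 10.75 with 16F16, a difference of -0.77 ± 0.09 (adjusted p = 0.0135). HSPA1B, its near-identical copy, differed by -0.76, and the array may not separate these genes. STIP1, which links HSP70 to HSP90, differed by -0.60 ± 0.09, CACYBP by -0.50 ± 0.09, HSPA4 by -0.50 ± 0.09, PTGES3, the HSP90 co-chaperone p23, by -0.38 ± 0.08, and BAG3, an HSP70 nucleotide exchange factor, by -0.37 ± 0.08. Against the shared mock arrays the median of the list was 0.41 for securinine and 0.07 for 16F16.

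Promoters of these genes were read from 250 bases before to 50 bases after the gene start in RefSeq (GRCh38.p14), where 17 of the 18 measured members matched. The search was for a heat shock element of 3 alternating GAA and TTC units set 2 bases apart, on both strands, with overlapping matches allowed. It was found in 2 of the 17 promoters (11.8%), those of CHORDC1 and HSPA6, and in 0.465% of the 10749 promoters of genes tested. Among the 10 matched promoters of called members only 1 held it, and HSPA6 was not called (-0.07). The CHORDC1 promoter, shown because this gene has the largest difference of the list and holds 3 overlapping matches, lies at chr11:90223000-90223299 on the minus strand. Capitals mark the matches.
CHORDC1: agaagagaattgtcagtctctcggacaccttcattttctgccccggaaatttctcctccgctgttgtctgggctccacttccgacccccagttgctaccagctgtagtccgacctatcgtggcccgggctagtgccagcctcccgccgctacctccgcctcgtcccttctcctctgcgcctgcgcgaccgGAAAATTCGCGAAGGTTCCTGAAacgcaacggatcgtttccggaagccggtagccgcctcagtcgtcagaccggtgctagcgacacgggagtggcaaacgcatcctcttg
A match is a description of the letters and says nothing of binding, and the absence of a match says only that these letters are not in this window.

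Of 20 measured NRF2 targets 8 were called lower and 1 higher with 16F16, with a median of -0.27. HMOX1, which opens the heme ring, read 5.30 and 5.40 in mock, 6.65 and 6.57 with securinine, and 5.11 and 5.70 with 16F16, a difference of -1.21 ± 0.19 (adjusted p = 0.0248). The 16F16 replicates lay on both sides of mock. BLVRB, biliverdin reductase B, went the other way. It read 7.67 and 7.42 in mock, 7.57 and 7.42 with securinine, and 8.66 on both 16F16 arrays, a difference of 1.16 ± 0.11 (adjusted p = 0.00995). TXNRD1, thioredoxin reductase, read 7.48 and 7.51 in mock, 8.69 and 8.55 with securinine, and 8.13 and 8.15 with 16F16, a difference of -0.48 ± 0.08 (adjusted p = 0.0297). RIT1 (-0.79 ± 0.11), SRXN1, which repairs oxidised peroxiredoxins (-0.60 ± 0.09), NFE2L2, the gene of NRF2 itself (-0.51 ± 0.09), SQSTM1, the autophagy receptor p62 (-0.46 ± 0.08), PRDX1, a peroxiredoxin (-0.44 ± 0.08), and GSR, glutathione reductase (-0.38 ± 0.08), were also lower with 16F16. The list medians against the shared mock arrays were 0.55 for securinine and 0.24 for 16F16. The core antioxidant response element, TGACNNNGC on either strand, was in 3 of 16 matched promoters (18.8%) and in 14.7% of those of genes tested.

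None of the listed endoplasmic reticulum genes that were measured was called in the fit as reported, but some were in other settings. Of 28 listed isomerases and thiol oxidases 17 were measured, and of 30 listed chaperones and degradation factors 19. The measured members include neither P4HB nor any isomerase gene named PDIA, and neither of the chaperone genes HSPA5 and HSP90B1. The lists therefore say nothing of those genes. Among 19 measured chaperones and degradation factors the median difference was 0.01, and among 17 measured protein disulfide isomerases and thiol oxidases it was -0.03, and 0.00 under a rescaling of the arrays. In limma 0 of these were called, and 6 in each list had an unadjusted p under 0.05. When the variance prior followed intensity, 4 isomerase genes were called higher and 2 lower, and 2 chaperone genes higher and 4 lower. TMX1, TMX4 and SDF2L1 were each called in 3 of 14 further settings. TMX1, a membrane-bound isomerase, gave 9.53 and 9.48 with securinine and 9.81 and 9.85 with 16F16, a difference of 0.33 with a 95% interval from 0.14 to 0.51 (adjusted p = 0.0558). TXNDC12 gave 10.75 and 10.78 with securinine and 10.48 and 10.32 with 16F16, a difference of -0.37 with an interval from -0.61 to -0.13 (adjusted p = 0.0731). Among the chaperones the lowest adjusted p belonged to SDF2L1 (0.0584), whose difference was 0.34 with an interval from 0.14 to 0.54, and HYOU1 differed by -0.35 with an interval from -0.56 to -0.14. The largest difference of the isomerase list, 0.95 for the peroxidase gene GPX8, was that of a dim probe set and did not pass (adjusted p = 0.0801).

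The ATF4 list split. Of 20 measured members 4 were called lower and 6 higher with 16F16, with a median of 0.03. The lower members were stress regulators. ATF4 itself, the transcription factor of the integrated stress response, read 7.77 and 7.78 in mock, 8.42 and 8.43 with securinine, and 7.58 and 7.66 with 16F16, a difference of -0.81 ± 0.08 (adjusted p = 0.00979). DDIT3, the pro-apoptotic factor CHOP, read 4.30 and 4.57, 6.06 and 6.16, and 5.13 and 5.15 in the same order, a difference of -0.97 ± 0.11 (adjusted p = 0.0137). SESN2, a regulator of mTORC1, differed by -0.74 ± 0.11, and GDF15 is given above. The higher members were metabolic enzymes, most of them of serine, glycine, cysteine and asparagine metabolism. PHGDH, the first enzyme of serine synthesis, read 8.07 and 8.08 in mock, 6.89 and 6.91 with securinine, and 8.002 and 7.68 with 16F16, a difference of 0.95 ± 0.12 (adjusted p = 0.0164). SHMT2 (0.68 ± 0.09), PCK2, the mitochondrial phosphoenolpyruvate carboxykinase (0.60 ± 0.10), ASNS (0.55 ± 0.10), PSAT1 (0.52 ± 0.08) and CTH (0.39 ± 0.08) were also higher with 16F16. For these 6 enzymes securinine lay 0.55 to 1.18 below mock. The list of amino acid transporters and tRNA synthetases had 17 measured members, all of them tRNA synthetases. Of these 2 were called (11.8%, near the share of all genes), YARS1 at -0.51 and IARS1 at -0.43.

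All 21 measured p53 targets lay lower with 16F16, 13 of them called and 0 called higher, with a median of -0.51. PLK2, a polo-like kinase, read 3.66 and 3.98 in mock, 6.36 and 6.29 with securinine, and 4.86 and 5.08 with 16F16. The 3 groups stood apart with 16F16 in the middle, and the difference was -1.36 ± 0.14 (adjusted p = 0.0107). DRAM1, a lysosomal protein of autophagy, differed by -1.11 ± 0.17, TP53INP1 by -0.89 ± 0.08, the long noncoding RNA PURPL by -0.85 ± 0.16, and EDA2R, a receptor of the TNF receptor family, by -0.63 ± 0.09. BAX, which permeabilises the outer mitochondrial membrane, read 8.04 and 7.92 in mock, 9.10 and 9.21 with securinine, and 8.65 and 8.69 with 16F16, a difference of -0.48 ± 0.09 (adjusted p = 0.0323). AEN, SESN1, TRIAP1, RPS27L, PLK3 and SPATA18 were called lower with differences from -0.61 to -0.49. The list medians against the shared mock arrays were 1.17 for securinine and 0.59 for 16F16. The list holds SESN2, which the ATF4 list also holds, and BAX, which is also among the apoptosis regulators. Of 19 measured apoptosis regulators 4 were called lower, BAX, BAK1 (-0.40), MCL1 (-0.39) and BCL2L1 (-0.35), and TRADD was called higher (0.50). The 4 lower genes include both promoters of cell death (BAX, BAK1) and inhibitors of it (MCL1, BCL2L1).

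The DNA replication list had the opposite sign. Of 28 measured members 16 were called higher with 16F16 and 0 lower, 26 lay above 0, and the median was 0.42. Cyclin E genes led the list. CCNE2 read 7.02 and 7.03 in mock, 6.60 and 6.40 with securinine, and 7.74 and 7.71 with 16F16, a difference of 1.23 ± 0.09 (adjusted p = 0.00876). CCNE1 read 8.17 and 8.03, 7.28 and 7.38, and 8.48 and 8.42 in that order, a difference of 1.12 ± 0.09 (adjusted p = 0.00876). CDT1, which loads the replicative helicase onto origins, read 8.57 and 8.45 in mock, 8.03 and 7.94 with securinine, and 9.13 and 9.05 with 16F16, a difference of 1.11 ± 0.09 (adjusted p = 0.00876). In all 3 genes mock lay between the compounds. Among the subunits of that helicase MCM3 was 9.52 on both securinine arrays and 10.31 and 10.27 with 16F16, a difference of 0.76 ± 0.07 (adjusted p = 0.00995), with mock at 10.24 and 10.22. MCM2 (0.58 ± 0.11), MCM5 (0.46 ± 0.08), MCM7 (0.43 ± 0.08) and MCM4 (0.40 ± 0.08) were also called. E2F2, a transcription factor of this programme, differed by 0.81 ± 0.12, the flap endonuclease FEN1 by 0.63 ± 0.10, the checkpoint adaptor CLSPN by 0.53 ± 0.10, and GINS2, UHRF1, MCM10, DTL and GINS3 by 0.41 to 0.53. The list medians against the shared mock arrays were -0.31 for securinine and 0.16 for 16F16.

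E2F sites, searched as TTTCCCGC or TTTGGCGC on both strands, were in 15 of the 24 promoters of this list that matched RefSeq (62.5%) and in 9 of the 13 matched promoters of called members. They were in 3.07% of the 10749 promoters of genes tested. The promoters of CDT1 (chr16:88803539-88803838, plus strand) and MCM3 (chr6:52284693-52284992, minus strand, both GRCh38.p14 from RefSeq) are shown as those of a loading factor and of a helicase subunit with large differences, with the site in capitals.
CDT1: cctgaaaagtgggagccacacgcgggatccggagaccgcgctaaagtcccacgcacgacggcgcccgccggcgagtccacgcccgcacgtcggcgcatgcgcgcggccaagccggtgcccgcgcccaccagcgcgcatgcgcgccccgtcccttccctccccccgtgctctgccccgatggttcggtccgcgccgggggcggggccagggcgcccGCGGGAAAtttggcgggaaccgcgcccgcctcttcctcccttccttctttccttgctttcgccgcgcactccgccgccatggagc
MCM3: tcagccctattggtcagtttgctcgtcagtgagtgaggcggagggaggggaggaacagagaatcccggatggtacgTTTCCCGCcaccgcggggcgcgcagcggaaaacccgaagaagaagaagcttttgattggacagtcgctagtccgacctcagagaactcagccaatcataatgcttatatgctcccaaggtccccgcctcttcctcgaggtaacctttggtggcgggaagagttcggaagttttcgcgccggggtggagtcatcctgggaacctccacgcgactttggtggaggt
Genes of E2F-driven replication are known to carry such sites, so the share describes the list and not the response to either compound.

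Of 34 measured genes of mitosis 2 were called, both lower with 16F16, 17 lay above 0 and 17 below, and the median was 0.00. AURKA, a spindle kinase, read 7.36 and 7.57 in mock, 7.74 and 7.63 with securinine, and 6.93 and 6.96 with 16F16, a difference of -0.74 ± 0.10 (adjusted p = 0.019). CCNB1, cyclin B1, read 9.29 and 9.33, 9.22 and 9.11, and 8.58 and 8.77, a difference of -0.49 ± 0.10 (adjusted p = 0.0406). The replication and mitosis lists were not tested against each other. Of 29 measured ribosome biogenesis genes RRS1 (0.60), NOB1 (0.42) and NOP14 (0.41) were called higher and WDR43 (-0.43) lower, a share of 13.8%.

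**Figure D4:**
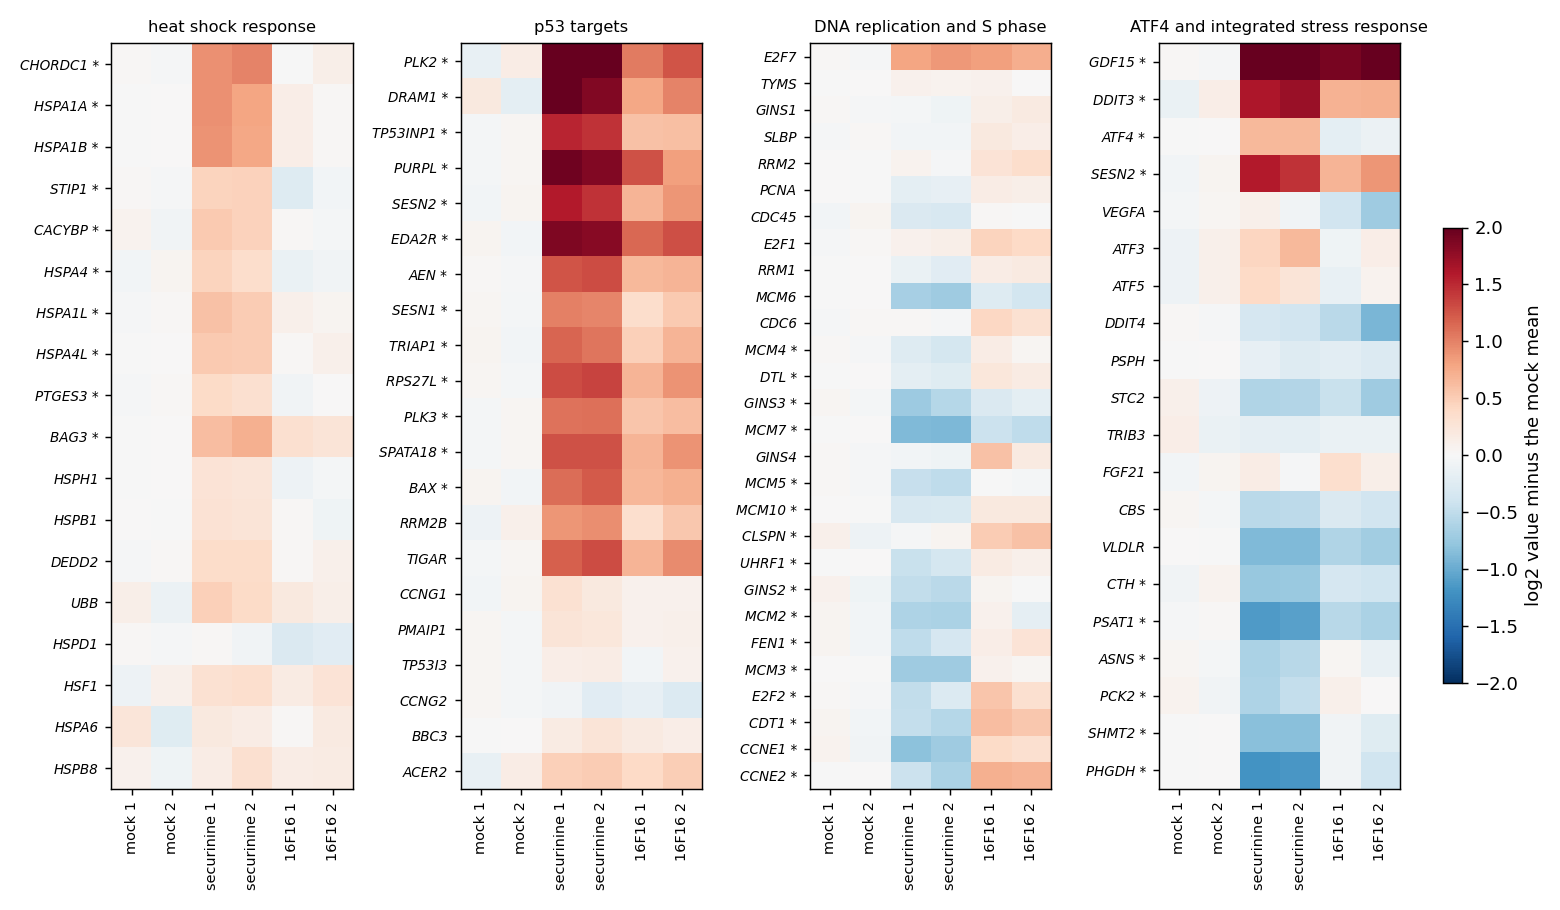
Log2 value of each array minus the mean of the mock arrays for the measured members of 4 lists, rows ordered by the difference between 16F16 and securinine, with an asterisk at called genes; red is above mock, blue below, and values beyond ±2 take the end colours. The securinine columns are the redder ones in the heat shock and p53 panels, with medians 0.41 and 1.17 above mock against 0.07 and 0.59 for 16F16, and the bluer ones in the replication panel.

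Of 26 measured lysosome and autophagy genes 8 were called lower with 16F16 and 0 higher, with a median of -0.32. The other 18 were not called, and 5 of them lay above 0, of which TFEB had the largest difference (0.54). GPNMB and CD68, already given, led the list, and TFE3, a transcription factor of lysosomal genes, read 7.37 and 7.35 in mock, 8.76 and 8.71 with securinine, and 7.997 and 7.9999 with 16F16, a difference of -0.73 ± 0.08 (adjusted p = 0.011). The membrane protein genes CD63 (-0.63 ± 0.07) and LAMP2 (-0.47 ± 0.08), the protease gene CTSA (-0.56 ± 0.08) and the autophagy gene ATG16L1 (-0.52 ± 0.08) were called with SQSTM1.

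Of 27 measured immediate-early and AP-1 genes 6 were called lower with 16F16 and 1 higher, with a median of -0.20. FOSL1, an AP-1 subunit, read 5.17 and 5.33 in mock, 7.71 and 7.82 with securinine, and 5.65 and 6.42 with 16F16, a difference of -1.73 ± 0.25 (adjusted p = 0.0208). EGR1, a zinc finger factor induced by growth signals, read 6.61 and 6.54, 9.01 and 8.82, and 7.53 and 7.51, a difference of -1.39 ± 0.09 (adjusted p = 0.00876), and its second probe set gave -1.37. TRIB1 (-0.75 ± 0.08), JUN (-0.69 ± 0.10) and FOSL2 (-0.61 ± 0.08) were also lower. JUN was near mock with securinine and lay 0.58 below it with 16F16, whereas FOSL2 was near mock with 16F16 and lay 0.56 above it with securinine. Of the 8 members that lay above 0, only MYC was called. It read 8.95 and 9.14 in mock, 6.36 and 6.49 with securinine, and 7.65 and 7.14 with 16F16, so that both compounds lay below mock and 16F16 lay 0.97 ± 0.18 above securinine (adjusted p = 0.0336).

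MAP kinase genes moved in both directions, with 3 of 25 called higher and 3 lower. Besides MAP2K6 these were MAP3K5, the stress kinase ASK1 (1.14 ± 0.11), and ETV1, an ETS factor downstream of ERK (1.19 ± 0.16), both higher with 16F16. The phosphatase genes DUSP8 (-0.75 ± 0.13) and DUSP16 (-0.50 ± 0.08) and the feedback inhibitor SPRY2 (-0.58 ± 0.08) were lower.

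The noradrenergic list had 5 of 29 measured genes called higher with 16F16 and 3 lower, with a median of 0.01. DDC, which makes dopamine from L-DOPA, read 8.95 and 8.90 in mock, 6.77 and 6.98 with securinine, and 7.98 and 7.76 with 16F16, a difference of 0.997 ± 0.12 (adjusted p = 0.0138). CHGA, the granule protein chromogranin A, read 9.51 and 9.47, 7.18 and 7.35, and 8.27 and 8.22, a difference of 0.98 ± 0.09 (adjusted p = 0.00979). In both genes the 16F16 arrays lay between the other groups. GATA2, a factor of sympathetic neurons, differed by 0.78 ± 0.10, DBH, which makes noradrenaline, by 0.49 ± 0.09, and INSM2 by 0.42 ± 0.08. The granule genes SCG2 and VGF went the other way. VGF read 8.61 and 8.64 in mock, 10.40 and 10.39 with securinine, and 9.50 and 9.54 with 16F16, a difference of -0.88 ± 0.07 (adjusted p = 0.00923), and ISL1 differed by -0.37 ± 0.08. Further genes with neuronal roles, given above, went both ways and were not counted as a group. GCH1 and DCX were lower with 16F16, and RPH3A (1.35) and NLGN3 (1.28) were higher.

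Of 28 measured mesenchymal genes 2 were called higher, the matrix protein gene FN1 (0.87 ± 0.12) and the receptor gene EGFR (0.84 ± 0.12), and 5 lower, among them FOSL1, JUN and FOSL2, which the AP-1 list also holds, with CD44 (-0.44) and TWIST2 (-0.37). The extracellular matrix list had only 11 of 52 members measured, with VCAN, FN1 and FJX1 (0.92 ± 0.10) higher and FAT1 and the protease inhibitor gene TFPI2 (-0.84 ± 0.12) lower. Of 32 measured axon guidance genes 5 were called higher and 2 lower. PLXNC1 (0.93 ± 0.19), the ephrin genes EFNA3 (0.82 ± 0.12) and EFNA1 (0.42 ± 0.09), SLIT1 (0.70 ± 0.13) and UNC5A (0.51 ± 0.09) were higher with 16F16, and EFNB2 and PLXNA2 (-0.84 ± 0.12) were lower.

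Among 20 measured hypoxia and glycolysis genes TXNIP and ARRDC4 were higher, and EGLN1, the oxygen-sensing prolyl hydroxylase (-0.83 ± 0.09), ANKRD37 (-0.58 ± 0.11) and PGAM1 (-0.51 ± 0.10) lower. Of 22 cholesterol genes INSIG1 was higher (0.56) and STARD4 lower (-0.44), a share of 9.09%, close to that of all genes. Of 26 interferon-stimulated genes 3 were higher, a share of 11.5%, near that of all genes. These were TRIM25, an E3 ligase of RNA sensing, by 1.29 ± 0.08 (limma, adjusted p = 0.00876), TRIM21 by 0.76 ± 0.11 and B2M by 0.56 ± 0.09. TRIM25 read 8.43 and 8.45 in mock, 7.11 and 7.08 with securinine, and 8.44 and 8.33 with 16F16, so that the securinine arrays alone stood apart. Of 11 metallothionein and zinc export genes MT1X was higher by 1.02 ± 0.11 (adjusted p = 0.0118) and MT1B by 0.75 ± 0.15. MT1B was dim, not above the lower quartile of any of the 6 arrays, and metallothionein paralogs are so alike that their separate values are uncertain. Of 14 iron genes LPCAT3 was higher (0.51) and HMOX1 and TF (-0.47) lower. The 10 measured respiratory chain genes gave 0 calls by limma, with 2 at an unadjusted p under 0.05. The proteasome list had 1 measured member, POMP at -0.30, and the voltage-gated channel list 1, HCN4 at 0.01, neither called. No GABA-A or glycine receptor subunit was among the named genes, so those receptors were not analysed here.

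**Figure D5:**
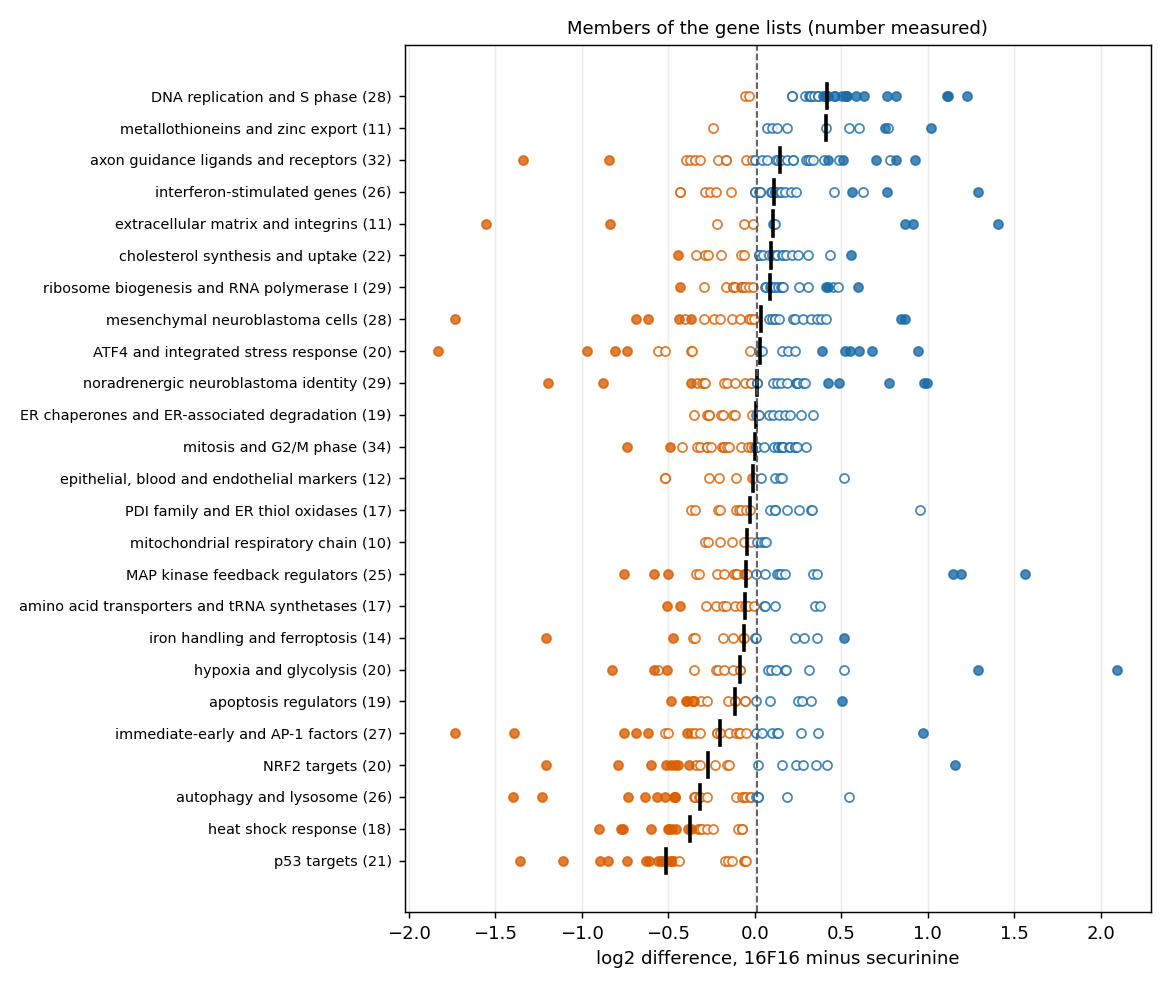
Log2 difference between 16F16 and securinine for each measured member of the lists with at least 5 measured members (number in brackets); filled points were called, open points were not, blue lies above 0 and orange below, black bars are list medians and the dashed line is the median of all genes at 0.01. The p53 list (median -0.51) and the heat shock list (-0.38) lie at the bottom with every member below 0, and the DNA replication list (0.42) lies at the top.

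Noncoding genes include some of the largest differences. They were called less often than the 9.51% of all genes, at 38 of 1072 microRNA genes and 63 of 1398 long noncoding RNA genes. Among the 38 called microRNA genes 15 were higher and 23 lower with 16F16. RefSeq holds mature sequences for 36 of the 38, with 0 seeds shared between genes. The 3 microRNA genes with the largest positive differences, MIR431, MIR127 and MIR136, lie with MIR432 on chromosome 14, opposite the strand of RTL1, in an imprinted region. MIR4441 (chromosome 2) and MIR644A (chromosome 20) have the largest negative ones. A single mature form of each is shown (RefSeq, GRCh38.p14), with the seed, bases 2 to 8, in capitals.
miR-431-5p: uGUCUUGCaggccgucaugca
miR-127-3p: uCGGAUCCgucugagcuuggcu
miR-136-5p: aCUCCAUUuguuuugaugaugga
miR-432-5p: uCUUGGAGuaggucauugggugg
miR-4441: aCAGGGAGgagauugua
miR-644a: aGUGUGGCuuucuuagagc
The seeds of the chromosome 14 genes differ from each other. The array was labelled from total RNA as for messenger RNA, so these probe sets may measure precursors or overlapping transcripts and not the mature forms, and the labels do not settle which strand each value reports.

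MIR431 read 9.13 and 8.86 in mock, 6.85 and 7.08 with securinine, and 8.75 and 8.66 with 16F16, a difference of 1.74 ± 0.13 (adjusted p = 0.00876). MIR127 read 11.09 and 10.84, 8.92 and 9.14, and 10.70 and 10.64, a difference of 1.64 ± 0.12, and MIR136 differed by 1.61 ± 0.13. RTL1, the retrotransposon-derived gene across from them, read 11.94 and 11.99 in mock, 10.20 and 10.54 with securinine, and 11.75 and 11.74 with 16F16, a difference of 1.37 ± 0.13 (adjusted p = 0.00979). All of these had the securinine arrays lowest and the 16F16 arrays below mock. Because they overlap, they are not separate observations. MCF2L-AS1, an antisense transcript on chromosome 13, had the largest noncoding difference. It read 7.08 and 7.05 in mock, 5.00 and 4.98 with securinine, and 7.01 and 6.91 with 16F16, a difference of 1.97 ± 0.08 (adjusted p = 0.00795), which is the lowest adjusted p of the comparison. MIR4441 read 3.57 and 3.17 in mock, 5.06 and 5.24 with securinine, and 3.68 and 2.85 with 16F16, a difference of -1.89 ± 0.29 (adjusted p = 0.0224). This gene was dim: its mock and 16F16 values lay below the medians of their arrays, and the filter on dim genes left it out. MIR644A differed by -1.52 ± 0.33 (adjusted p = 0.0473), with mock arrays at 3.34 and 4.39 that were farther apart than most.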

How the data were processed

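Total RNA from 6 SH-SY5Y cultures (mock, securinine 30 µM, 16F16 4 µM, 2 each, 24 h) was measured on a whole-transcript Affymetrix array. The deposited values are log2 expression made by the authors with RMA (background correction, normalization and summary of probes), and limma is also named, per the submitters' processing notes, with no version given. Values were used as deposited, with no further normalization or filter. Of 53617 probe sets 30.0% carry 1 gene symbol, and 37519 unnamed ones were left out. Where a gene had more than 1 probe set (779 genes), the brightest by mean over the arrays stood for it.

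All 6 arrays were fitted by group with limma 3.58.1 in R 4.3.3 (two-sided, Benjamini-Hochberg over 14884 genes, called at adjusted p under 0.05, 3 residual degrees of freedom), and the code was tested on simulated data. The number of arrays limits precision. Errors are standard errors of the fit.

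Named genes were the 15 largest called differences in each direction, 8 each of the patterns against mock and of the bounded differences, up to 4 per gene list by adjusted p, and 6 noncoding genes, with small RNAs, antisense genes, pseudogenes and uncharacterised loci kept out of the first sets. Other called list members, ARRDC4's array values and the second probe sets were added after their values were seen. The genes, lists and motifs were chosen with earlier results of these data known. Alternatives were the fit of 4 arrays, a replicate block, an intensity trend, 2 rescalings, a filter on dim genes, all probe sets, the mean of probe sets, and leaving out each array. Replicate numbers did not pair arrays.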

Additional observations from a re-analysis of the deposited data

How the results depend on the processing

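All 1416 called genes kept their direction in every alternative that tested them (1334 of 1334 with the filter on dim genes). Only the 2 rescalings and the mean of probe sets could have changed it. The fits of 4 arrays, block, trend, filter and all probe sets keep the same difference of group means. The compound arrays of called genes did not overlap, so leaving out an array could not reverse them. The number called did not hold. The fit of the 4 compound arrays alone called 324 genes (232 higher, 92 lower with 16F16), 319 of them among the 1416. With the replicate number as a block 503 were called (342 higher, 161 lower), although same-numbered arrays did not deviate together (correlations of -0.01, 0.02 and -0.05). An intensity trend in the variance prior called 3107 (1564 higher, 1543 lower), and only genes brighter than the median of all probe sets, 2522 of 10566 (1334 higher, 1188 lower). With all probe sets in the adjustment 0 were called, higher, lower or by at least 2-fold, and 9565 had an unadjusted p under 0.05. Leaving out an array gave 0 to 324 called genes, 0 to 232 higher, 0 to 92 lower and 0 to 144 by at least 2-fold; the lone array of a group was assumed to vary like the others. Quantile normalization called 1498 (67.4% higher), centring 1275 (66%) and the mean of probe sets 1400, against 58.3% higher in the fit as reported. Under the rescalings and the mean of probe sets, no difference of a named gene that was called changed sign. Each listed count of called members fell to 0 in the settings that called no gene, and counts rose in others, such as to 4 higher isomerase genes with the intensity trend, while the medians of the heat shock (-0.42 to -0.32), p53 (-0.60 to -0.44), NRF2 (-0.33 to -0.21), lysosome (-0.35 to -0.25) and DNA replication (0.38 to 0.49) lists stayed within the ranges given. Why the counts differ was not tested. The 2 arrays per group, and values at or below the lower quartile for MT1B, limit what can be called.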

Other observations

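Further large differences, chosen after their values were seen, lay among genes that no list held. JUP, plakoglobin of cell junctions, read 6.92 and 6.91 with securinine and 8.26 and 8.21 with 16F16, a difference of 1.32 ± 0.08 (limma, adjusted p = 0.00876). NRN1, a secreted protein of neurite growth, differed by 1.31 ± 0.13, the neuropeptide gene VIP by 1.25 ± 0.18, KLF9 by 1.21 ± 0.16, the Notch ligand gene DLL3 by 1.19 ± 0.09 and the potassium channel partner DPP6 by 1.19 ± 0.12, all higher with 16F16 and with mean mock levels at or above the 16F16 arrays. E2F8, a repressor of the E2F family, differed by 1.21 ± 0.08, and its 16F16 arrays (8.53 and 8.43) lay above the mock mean of 8.06.

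Lower with 16F16 were the host genes MIR22HG (-1.51 ± 0.09) and MIR4435-2HG (-1.27 ± 0.25), the imprinted gene PEG10 (-0.95 ± 0.08), the chaperone gene CLU (-0.86 ± 0.10) and the Wnt antagonist gene DKK1 (-0.81 ± 0.09). MIR3189, which lies in an intron of GDF15, differed by -1.41 ± 0.14, so its value and that of GDF15 may share transcripts. PEG10 read 11.50 and 11.52 with securinine and 10.52 and 10.59 with 16F16, and its mock mean was 10.36.

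Gene families were taken by symbol after values were seen, and 9.51% of all genes were called. Of 467 zinc finger genes named ZNF 10 were called higher and 23 lower (7.07% called), with a median difference of -0.06, and of 36 RNA binding motif genes 0 were called higher and 5 lower (13.9%), with a median of -0.16. Of 73 mitochondrial ribosomal protein genes 5 were called higher and 0 lower (6.85%), and of 27 HOX genes HOXC9 alone was called (3.70%).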
